A study of Mus musculus with 9 samples.

Results

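The enzymes that link citrulline, arginine, ornithine, proline, glutamate and glutamine in the small intestine were measured in jejunum of Gata4 mutant mice, ileum of control mice and jejunum of control mice. The group holds 9 genes, namely Cps1, Otc, Ass1, Arg2, Oat, Aldh18a1, Prodh, Glul and Glud1. Every probe set annotated to 1 of these symbols and to no other gene was taken, which gave 18 of the 45037 probe sets on the array. Of these, 17 were bright enough to be tested, and they cover 8 genes. The single probe set of Ass1 was too dim. Mutant jejunum (n = 3) came from Gata4loxP/- mice, in which 1 copy of the gene for the zinc finger factor GATA4 is null and the other flanked by loxP sites. Control ileum (n = 3) and control jejunum (n = 3) came from separate Gata4loxP/+ mice. All 9 mice were adult males of 6 to 8 weeks and carried VilCre, a Cre transgene driven by the villin promoter in intestinal epithelium, so controls too could lose their loxP-flanked copy there. The jejunal piece lay 10 cm beyond the pyloric sphincter and the ileal piece 1 cm before the cecum. RNA of each mouse went onto 1 Affymetrix mouse genome array, which reads the intensity of probe sets.

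Enterocytes are a main site where dietary and blood glutamine and proline are turned into citrulline, which leaves the gut and serves the kidney for arginine synthesis. Glutamate and proline both feed into pyrroline carboxylate, the shared intermediate of this network, which ornithine aminotransferase turns into ornithine. Inside the mitochondrion, carbamoyl phosphate and ornithine are then joined into citrulline, while arginase splits arginine back to ornithine and urea.

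Levels are quantile-normalized log2(intensity + 16), given as mean ± SD with n = 3 a group. A call is an adjusted p under 0.05 in limma, with Benjamini-Hochberg adjustment over the 29307 probe sets tested. Trimmed mean intensity before normalization was 148 to 181 on the mutant jejunum arrays, 97.5 to 122 on the control ileum arrays and 151 to 173 on the control jejunum arrays, so segment and brightness cannot be told apart. Mutant jejunum 3 stood apart from the other arrays, at -55.8 on the second principal component, where the other 8 lay between -6.17 and 22.4. Both Gata4 probe sets gave signal in mutant jejunum (9.50 ± 0.11 for the brighter one, against 9.53 ± 0.04 in control jejunum), and no source used here says whether they lie in the deleted part, so they check nothing about the genotype. The brightest probe set of each of 6 epithelial markers stood at 10.06 or more on every array, and 2 of the 6 rose in control ileum against control jejunum. Of 4 tested markers of absorptive enterocytes, the cells that hold this network, none was called between mutant and control jejunum in limma, where Alpi and Anpep had unadjusted p-values of 0.0172 and 0.0277. In control ileum against control jejunum Alpi and Apoa4 fell, with log2 differences of -0.82 and -3.50, and between mutant jejunum and control ileum Apoa4 rose and Anpep fell. The summed linear level of the 4 was 29000 to 35170 in mutant jejunum, 23300 to 28170 in control ileum and 36280 to 37150 in control jejunum, with no overlap between groups. Of 31 tested markers of 7 other cell classes, none was called between mutant and control jejunum in limma, and 3 had an unadjusted p under 0.05. Between control ileum and control jejunum, 7 of the 31 rose and 4 fell, and between mutant jejunum and control ileum 2 rose and 7 fell. Of 6 smooth muscle markers 5 rose in control ileum against control jejunum, and their summed linear level was 5231 to 7964 in mutant jejunum, 12130 to 15540 in control ileum and 6060 to 8899 in control jejunum. The other rises were 2 of 5 tested enteric neuron and glia markers, with sums of 185.5 to 243.8 in control ileum and 138.4 to 150.6 in control jejunum. Lower in control ileum were 1 of 3 tested T cell markers (sums of 169.5 to 461.3, against 536.3 to 807.6 in control jejunum), 2 of 3 B and plasma cell markers (4164 to 6666, against 8042 to 9541) and 1 of 6 macrophage and myeloid markers (3822 to 6107, against 3997 to 4159). Of 4 pancreatic acinar markers with a probe set, Cpa1 and Cela2a were near background and not tested. Ctrb1 averaged 5.44 in mutant jejunum, 5.41 in control ileum and 4.89 in control jejunum, and Prss2 5.41, 5.36 and 5.79. In mutant against control jejunum they gave 0.55 and -0.38 (adjusted p = 0.169 and 0.498 in limma), and neither was called in any comparison. The part of these cell types in the differences below was not tested, and fewer cells of a type cannot be told apart from less RNA per cell in whole tissue.

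The promoter windows of 7 of the 9 genes are in the RefSeq table of build GRCm38.p6. Cps1 and Arg2 have no entry there. Each window holds the 250 bases before the gene's start. They were searched on both strands for the GATA factor motif, that is GATA with A or T before it and A or G after it, and overlapping matches were each counted. Of all 32851 windows in the table, 26.5% held at least 1 match, and 1 of the 7 windows of these enzymes did. That was the window of Otc, with 2 matches, which start 36 and 15 bases before the gene's start. The first one is CTATCT, the reverse complement of AGATAG. The windows of Prodh and of Glul, shown because their RNA was higher on all 3 mutant jejunum arrays than on any control jejunum array, held none. Otc, Prodh and Glul are printed 5′ to 3′ on the strand of the gene, with matches in capitals. Otc lies at chrX:10252055-10252304, on the plus strand, Prodh at chr16:18089191-18089440, on the minus strand, and Glul at chr1:153899679-153899928, on the plus strand.
Otc: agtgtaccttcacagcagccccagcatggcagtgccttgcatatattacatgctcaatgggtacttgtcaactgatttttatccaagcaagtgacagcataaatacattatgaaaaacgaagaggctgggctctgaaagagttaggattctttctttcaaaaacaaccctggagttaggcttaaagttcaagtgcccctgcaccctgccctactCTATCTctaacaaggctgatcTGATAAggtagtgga
Prodh: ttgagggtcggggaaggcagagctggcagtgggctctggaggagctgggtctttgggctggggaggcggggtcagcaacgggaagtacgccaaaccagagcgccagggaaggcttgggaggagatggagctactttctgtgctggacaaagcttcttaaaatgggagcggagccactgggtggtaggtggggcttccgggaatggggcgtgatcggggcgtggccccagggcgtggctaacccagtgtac
Glul: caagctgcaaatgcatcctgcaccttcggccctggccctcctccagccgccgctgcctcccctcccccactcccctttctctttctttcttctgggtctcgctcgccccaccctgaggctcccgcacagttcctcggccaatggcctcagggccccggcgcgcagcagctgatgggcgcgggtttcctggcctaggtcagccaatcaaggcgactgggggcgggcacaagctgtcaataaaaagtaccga
GC content was 43.6% in the Otc window, 63.2% in the Prodh window and 64.8% in the Glul window, against a median of 52.4% over all windows. A match is a description of the letters in the window and shows no binding.

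In mutant jejunum the arginase gene Arg2 fell and the proline dehydrogenase gene Prodh rose, each more than 2-fold. The glutamine synthetase gene Glul rose on 1 of its 2 probe sets. The glutamate dehydrogenase gene Glud1 fell on 1 of its 2, a call that held in 9 of 20 alternatives. The genes of citrulline synthesis proper, Cps1 and Otc, and the ornithine aminotransferase gene Oat were not called. With the brightest tested probe set standing for each gene, 1 of the 8 genes was higher and 1 lower, both called, in mutant jejunum than in that of controls, where 4.39% of all 13830 genes tested were called. Counted over probe sets, 2 of 17 rose and 3 fell, against 3.56% of all probe sets called. The median log2 difference was -0.25 over the 8 genes and 0.00 over all genes. Control ileum differed from control jejunum at more of these genes. There, 1 of 8 rose and 4 fell, where 17.9% of all genes were called, and 2 of 17 probe sets rose and 10 fell, where 16.2% of all probe sets were called. The median was -0.26 over the 8 genes and 0.03 over all genes. Between mutant jejunum and control ileum no gene of the 8 was called, where 3.67% of all genes were. In limma 3 of the 8 had an unadjusted p under 0.05 there, against 6 of 8 in each comparison with control jejunum. The share of all genes with such a p was not counted. Arrays did not overlap for 6 of the 8 genes between mutant and control jejunum, where this held for 25% of all genes, for 7 of 8 between control ileum and control jejunum (40.1% of all genes) and for 3 of 8 between mutant jejunum and control ileum (22.6% of all genes). The mutant and ileal comparisons share their control jejunum arrays.

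**Figure D1:**
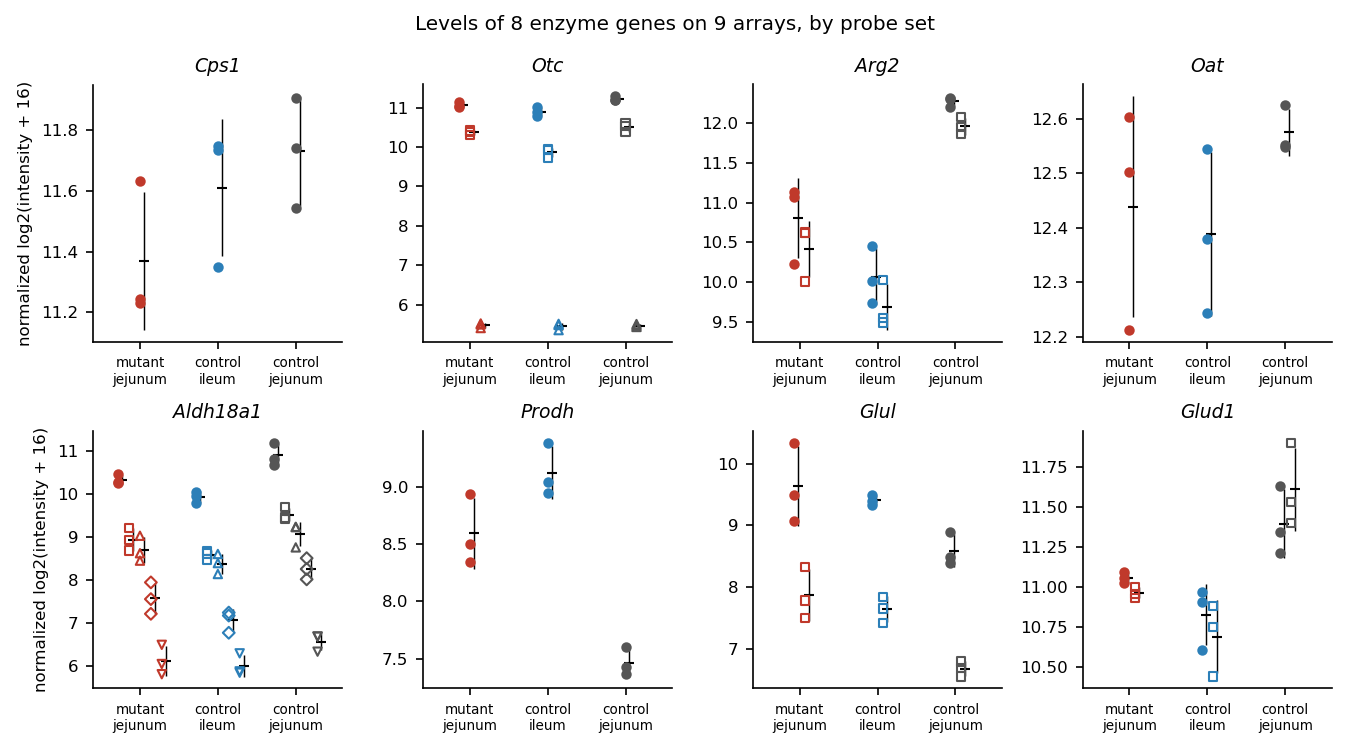
Normalized log2(intensity + 16) of 8 enzyme genes on the 9 arrays, with a point for each array and probe set and a black bar for the group mean ± SD (n = 3). Filled points are the brightest probe set of a gene, open shapes its other tested probe sets, and each panel has its own vertical scale. Arg2 stood at 10.22 to 11.13 in mutant jejunum and 9.74 to 10.46 in control ileum on its brightest probe set, all below the 12.21 to 12.32 of control jejunum.

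Cps1 encodes the mitochondrial carbamoyl phosphate synthetase, which commits ammonia to citrulline synthesis. Its probe set (1455540_at) stood at 11.23, 11.24 and 11.63 in mutant jejunum, at 11.35, 11.75 and 11.74 in control ileum and at 11.74, 11.91 and 11.54 in control jejunum. The 3 groups overlapped, and mutant jejunum 3 lay above the lowest control jejunum array. The log2 difference between mutant and control jejunum was -0.36, with a 95% interval of -0.69 to -0.03 and adjusted p = 0.251. Control ileum differed from control jejunum by -0.12, with an interval of -0.45 to 0.21 (adjusted p = 0.635).

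Otc encodes ornithine transcarbamylase, which makes citrulline from ornithine and carbamoyl phosphate. Its brightest probe set (1420525_a_at) stood at 11.02, 11.05 and 11.16 in mutant jejunum, at 10.78, 10.89 and 11.02 in control ileum and at 11.20, 11.20 and 11.29 in control jejunum. All mutant arrays lay just below all control jejunum arrays, yet the difference was small (-0.15 on the log2 scale, interval -0.37 to 0.06) and not called (adjusted p = 0.476). In control ileum Otc fell by 0.33 ± 0.10 (SE) against control jejunum on this probe set, or 1.26-fold, with adjusted p = 0.0401, but the adjusted p ran from 0.00262 to 0.130 over 21 alternatives, and the call was lost without control ileum 1 or 2 (0.118 and 0.103), without control jejunum 1, 2 or 3 (0.0749, 0.0910 and 0.130) without mutant jejunum 2 (0.0595), with no filter (0.0614) and with no intensity trend (0.0979). The second probe set of Otc (1436615_a_at) stood at 10.39, 10.31 and 10.42 in mutant jejunum, at 9.94, 9.73 and 9.92 in control ileum and at 10.38, 10.53 and 10.60 in control jejunum. On it the ileal arrays lay apart from all others. Otc fell by 0.64 ± 0.11 (SE) in control ileum against control jejunum on this probe set (adjusted p = 0.00252), a call that held in all 20 alternatives run for it. It was also the only probe set of the 17 called between mutant jejunum and control ileum, where 2.65% of all probe sets were called, with a log2 difference of 0.51 (adjusted p = 0.0338). Without mutant jejunum 1 or 2 it was no longer called (adjusted p = 0.104 and 0.0728), nor without control ileum 1, 2 or 3 (0.0569, 0.133 and 0.0605), nor without control jejunum 2 or 3 (0.0563 and 0.0521), nor with no intensity trend (0.0753) or the 2 groups alone (0.0839), out of a range of 0.00124 to 0.133. The third probe set (1425540_at) was dim, at 5.35 to 5.52 on all 9 arrays, and was not called.

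Arg2 encodes the mitochondrial arginase, which splits arginine into ornithine and urea. Its brightest probe set (1418847_at) stood at 11.13, 11.07 and 10.22 in mutant jejunum, at 10.46, 9.74 and 10.01 in control ileum and at 12.31, 12.21 and 12.32 in control jejunum. Every mutant and every ileal array lay below every control jejunum array, and mutant jejunum 3 lay within the ileal range. The second probe set (1438841_s_at) gave the same picture, at 10.62, 10.62 and 10.01 in mutant jejunum, 10.02, 9.49 and 9.55 in control ileum and 11.95, 11.86 and 12.07 in control jejunum. Arg2 fell in mutant against control jejunum by 1.47 ± 0.23 (SE) on the log2 scale on the brightest probe set (2.77-fold lower, adjusted p = 0.00600). On the second one it fell by 1.54 ± 0.18 (2.92-fold lower, adjusted p = 0.00103). In control ileum it fell by 2.21 ± 0.23 on the brightest probe set, or 4.62-fold, against control jejunum (adjusted p = 0.000129). These calls held in every alternative run, with the mutant difference of the brightest probe set between -1.63 and -1.17. Without mutant jejunum 3 that difference was -1.17 (adjusted p = 0.00634). Mutant jejunum was above control ileum by 0.73 ± 0.18 on the second probe set, which was not called (adjusted p = 0.0658). It was called in 5 of 20 alternatives, with adjusted p from 0.00311 to 0.213. On the brightest probe set this difference was 0.74 ± 0.23 (interval 0.23 to 1.25), which was not called (adjusted p = 0.131). It was called without mutant jejunum 3 (a difference of 1.03, adjusted p = 0.0134), with array weights (1.01, adjusted p = 0.0113) and with no scaling (1.36, adjusted p = 0.00526), out of a range of adjusted p from 0.00526 to 0.360 over 21 alternatives.

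Ass1 encodes argininosuccinate synthase, which carries citrulline on towards arginine. Its only probe set with no other gene annotated (1459937_at) stood at 4.71, 4.69 and 4.31 in mutant jejunum, at 4.92, 4.87 and 4.16 in control ileum and at 4.70, 4.98 and 4.49 in control jejunum. An intensity near 0 gives about 4 on this scale, so these values sit close to background, and Ass1 was not tested.

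Oat encodes ornithine aminotransferase, the mitochondrial enzyme between pyrroline carboxylate and ornithine. It stood at 12.60, 12.50 and 12.21 in mutant jejunum, at 12.24, 12.54 and 12.38 in control ileum and at 12.63, 12.55 and 12.55 in control jejunum (1416452_at). These levels spanned a narrow range, and the mutant arrays overlapped those of both control segments. The control ileum arrays lay just below the control jejunum ones, at 12.544 or less against 12.549 or more. The log2 difference was -0.14 between mutant and control jejunum (interval -0.39 to 0.11, adjusted p = 0.598) and -0.19 between control ileum and control jejunum (interval -0.44 to 0.06, adjusted p = 0.295). With no scaling between arrays, where the median of all probe sets moved by -0.40, the ileal difference of Oat was -0.63 (adjusted p = 0.0212) and that of Cps1 -0.67 (adjusted p = 0.0124).

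Aldh18a1 encodes the pyrroline carboxylate synthetase, which reduces glutamate to the shared intermediate of proline and ornithine synthesis. It has 5 probe sets. The brightest one (1437325_x_at) stood at 10.46, 10.27 and 10.24 in mutant jejunum, at 9.77, 9.95 and 10.03 in control ileum and at 10.81, 11.18 and 10.67 in control jejunum. The 3 groups did not overlap on it, with mutant jejunum in the middle. All 5 probe sets of Aldh18a1 had lower means in control ileum than in the jejunum of controls, and 4 of them were called. It fell by 0.97 ± 0.14 (SE) on the brightest one (1.96-fold lower, adjusted p = 0.00112), in all 21 alternatives run. On the other 4 the ileal log2 differences were -0.93, -0.70, -1.20 and -0.56, with adjusted p = 0.00192, 0.0318, 0.00317 and 0.0864. The call of the third brightest probe set (1415836_at) was lost without control ileum 1 or 2 (adjusted p = 0.102 and 0.0789) and without control jejunum 1 or 2 (adjusted p = 0.0941 and 0.114), out of a range of 0.00283 to 0.114. In mutant against control jejunum all 5 differences were negative, between -0.69 and -0.37, and none was called. The brightest gave -0.56 ± 0.14 with adjusted p = 0.0558. That value passed the threshold with array weights (0.0386) and with the filter at the 60th percentile (0.0457), out of a range of 0.0386 to 0.262. Probe sets whose ID ends in x_at hold probes that can also match other transcripts.

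Prodh encodes proline dehydrogenase, which starts the breakdown of proline by oxidizing it to pyrroline carboxylate. Its probe set (1417629_at) stood at 8.50, 8.34 and 8.94 in mutant jejunum, at 9.39, 8.95 and 9.05 in control ileum and at 7.42, 7.61 and 7.37 in control jejunum. The groups did not overlap, and the highest mutant array (8.94) lay just under the lowest ileal one (8.95). Prodh rose by 1.13 ± 0.18 (SE) in mutant against control jejunum (2.19-fold, adjusted p = 0.00571) and by 1.66 ± 0.18 in control ileum against control jejunum (3.16-fold, adjusted p = 0.000136). Both calls held in all 21 alternatives run, with the mutant difference between 0.95 and 1.25. Without mutant jejunum 3 it was 0.96 (adjusted p = 0.0115). Between mutant jejunum and control ileum the difference was -0.53 ± 0.18 (interval -0.92 to -0.14) and was not called (adjusted p = 0.152). It was called without mutant jejunum 3 (-0.70, adjusted p = 0.0418) and with array weights (-0.62, adjusted p = 0.0391), out of a range of adjusted p from 0.0392 to 0.875, and it was 0.04 with no scaling between arrays, where the median of all probe sets moved by 0.41.

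Glul encodes glutamine synthetase, which makes glutamine from glutamate and ammonia. Its brightest probe set (1426236_a_at) stood at 9.49, 9.08 and 10.34 in mutant jejunum, at 9.33, 9.40 and 9.49 in control ileum and at 8.39, 8.90 and 8.48 in control jejunum. The dimmer one (1426235_a_at) stood at 7.78, 7.50 and 8.33 in mutant jejunum, at 7.65, 7.84 and 7.42 in control ileum and at 6.80, 6.70 and 6.55 in control jejunum. On both, every mutant and ileal array lay above every control jejunum array, and mutant jejunum 3 was the highest of all 9. Glul rose on the dimmer probe set by 1.19 ± 0.20 (SE) in mutant against control jejunum (2.28-fold, adjusted p = 0.00957) and by 0.96 ± 0.20 in control ileum against control jejunum (1.94-fold, adjusted p = 0.00909). Without control jejunum 3 the mutant difference was no longer called (adjusted p = 0.0527, out of a range of 0.00467 to 0.0527), and with no scaling between arrays the ileal one was 0.50 and no longer called (adjusted p = 0.0706, out of a range of 0.00172 to 0.0706). The brightest probe set gave 1.05 ± 0.26 in mutant against control jejunum (adjusted p = 0.0552) and 0.82 ± 0.26 in control ileum against control jejunum (adjusted p = 0.0573), neither of which was called. The first was called in 6 of 21 alternatives, namely with no scaling (adjusted p = 0.0210), arrays centred on their medians (0.0204), the filter at the 60th percentile (0.0489), array weights (0.0466), the mean of both probe sets (0.0236) and without mutant jejunum 2 (0.0260), out of a range of 0.0204 to 0.187. The second was called in 5, namely with array weights (adjusted p = 0.0171), the 2 groups alone (0.00689), the mean of both probe sets (0.0233) and without mutant jejunum 2 or 3 (0.0305 and 0.00584), out of a range of 0.00584 to 0.349. Without mutant jejunum 3, Glul on its dimmer probe set rose by 0.96 in mutant against control jejunum (adjusted p = 0.0148). Among the mutant arrays, mutant jejunum 3 also had the highest sum of the 6 macrophage and myeloid markers (5490, against 2988 and 3515). That sum was 3997 to 4159 in control jejunum. Mutant jejunum 3 had the highest mutant sums of endothelium and stroma (5024, against 3134 and 3340) and crypt and proliferation (7882, against 5289 and 5543). The same held for T cell and for B and plasma cell markers. Control ileum 3, with a myeloid sum of 6107, had the highest ileal Glul on the brightest probe set (9.49). On the dimmer one it had the lowest (7.42). The part of these cells in the Glul values was not tested.

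Glud1 encodes glutamate dehydrogenase, which interconverts glutamate and ketoglutarate with release or uptake of ammonia. Its brighter probe set (1416209_at) stood at 11.06, 11.02 and 11.09 in mutant jejunum, at 10.91, 10.97 and 10.61 in control ileum and at 11.34, 11.21 and 11.63 in control jejunum. The other one (1448253_at) stood at 10.95, 11.00 and 10.93 in mutant jejunum, at 10.75, 10.88 and 10.44 in control ileum and at 11.40, 11.53 and 11.90 in control jejunum. On both, the mutant arrays lay between the ileal and the control jejunum arrays with no overlap. Glud1 fell in control ileum against control jejunum by 0.57 ± 0.13 (SE, adjusted p = 0.0133) on the first and by 0.92 ± 0.15 (adjusted p = 0.00175) on the second. The first of these missed the threshold when control jejunum 3 was left out (adjusted p = 0.0565, range 0.00102 to 0.0565). In mutant against control jejunum the first probe set gave -0.34 ± 0.13 and was not called (adjusted p = 0.213). On the second Glud1 fell by 0.65 ± 0.15 (1.57-fold lower, adjusted p = 0.0359). That call held in 9 of 20 alternatives. It was lost with no scaling (adjusted p = 0.211), arrays centred on their medians (0.176), trimmed mean scaling (0.0576), no filter (0.0588), no intensity trend (0.0765) and the replicate block (0.0600). It was also lost without mutant jejunum 1, 2 or 3 (adjusted p = 0.0813, 0.103 and 0.0751) and without control jejunum 2 or 3 (adjusted p = 0.0942 and 0.137), out of a range of 0.0139 to 0.211.

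**Figure D2:**
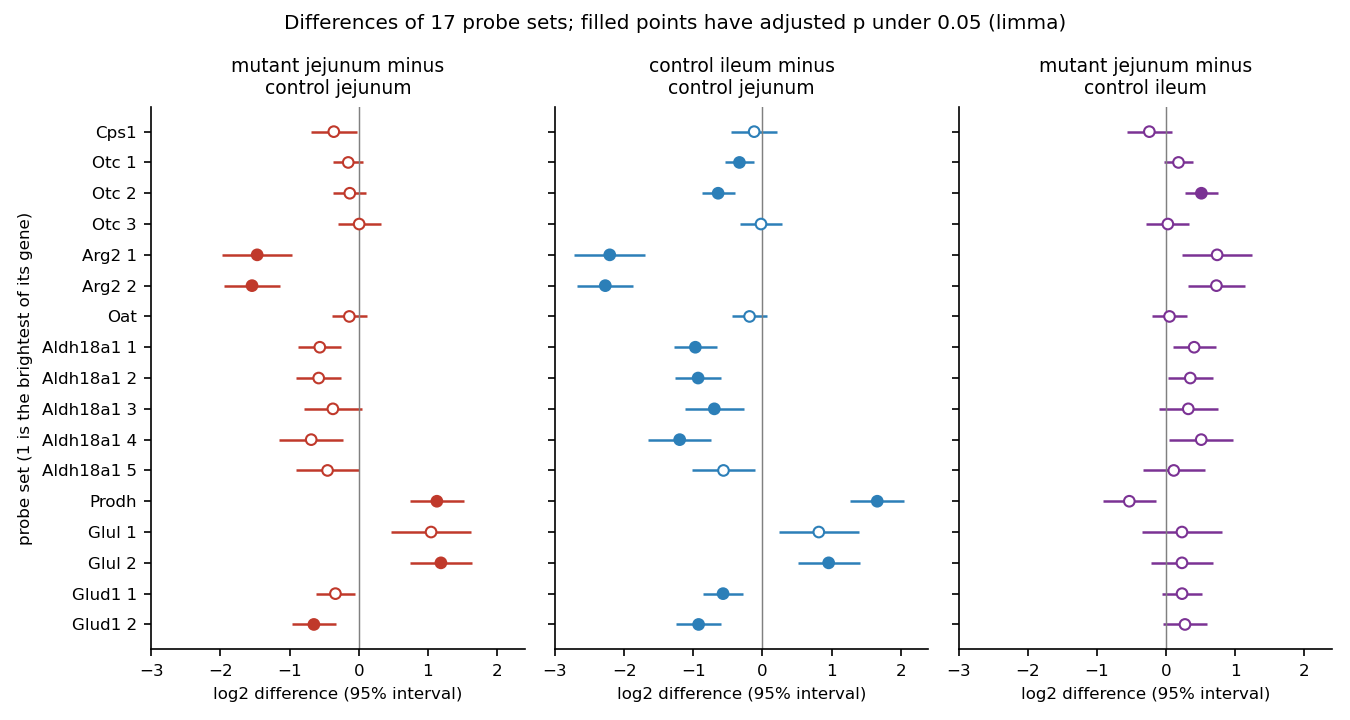
Log2 differences with 95% intervals of the 17 tested probe sets in mutant jejunum minus control jejunum, control ileum minus control jejunum and mutant jejunum minus control ileum, on 1 common scale. Filled points have an adjusted p under 0.05 in limma. Arg2 and Prodh were filled in both comparisons with control jejunum, while only the second probe set of Otc was filled between mutant jejunum and control ileum.

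Arg2 averaged 10.81 ± 0.51 in mutant jejunum, 10.07 ± 0.36 in control ileum and 12.28 ± 0.06 in control jejunum, so the order from the lowest was control ileum, mutant jejunum, control jejunum, and of its neighbours only mutant and control jejunum were called apart. Prodh had the opposite order, with 8.60 ± 0.31 in mutant jejunum, 9.13 ± 0.23 in control ileum and 7.47 ± 0.12 in control jejunum, and again only mutant and control jejunum were neighbours called apart. Aldh18a1 averaged 10.32 ± 0.12 in mutant jejunum, 9.92 ± 0.13 in control ileum and 10.89 ± 0.27 in control jejunum. Glud1 averaged 11.06 ± 0.04 in mutant jejunum, 10.83 ± 0.19 in control ileum and 11.40 ± 0.21 in control jejunum. Both had the order of Arg2, with no neighbours called apart on the brightest probe set. The same holds for Otc, at 11.08 ± 0.07 in mutant jejunum, 10.90 ± 0.12 in control ileum and 11.23 ± 0.05 in control jejunum, and for Oat, at 12.44 ± 0.20, 12.39 ± 0.15 and 12.57 ± 0.04 in these groups. For Oat, the difference of mutant jejunum from control ileum turned to -0.016 with trimmed mean scaling and to -0.032 without mutant jejunum 1. Glul averaged 9.63 ± 0.64 in mutant jejunum, 9.40 ± 0.08 in control ileum and 8.59 ± 0.27 in control jejunum, with mutant jejunum the highest, but without mutant jejunum 3 it lay 0.12 below control ileum (a difference of -0.12). Cps1 averaged 11.37 ± 0.23 in mutant jejunum, 11.61 ± 0.23 in control ileum and 11.73 ± 0.18 in control jejunum, with mutant jejunum the lowest, but above control ileum by 0.07 with arrays centred on their medians and by 0.39 with no scaling. Neighbours were not called apart for Glul or Cps1 on the brightest probe set. On the dimmer probe set of Glul, control ileum and control jejunum were neighbours and called apart. So were mutant and control jejunum on the second probe set of Glud1, and mutant jejunum and control ileum on the second one of Otc. The summed level of the absorptive enterocyte markers had the order of Arg2 in the 3 groups. Of its genes, Apoa4, Alpi and Fabp2 had that order, with control ileum against control jejunum at -3.50, -0.82 and -0.09. Anpep did not, at 0.15. The summed epithelial markers stood at 35370 to 39560 in mutant jejunum, 37540 to 39090 in control ileum and 34780 to 36680 in control jejunum. The part of these cells in the orders of the enzymes was not tested.

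Of 35 other genes around the same reactions, 24 were tested, and the others are not analysed here. In mutant jejunum 2 of the 24 rose against control jejunum and 1 fell, where 4.39% of all genes were called, and the median log2 difference was 0.11. In control ileum against control jejunum 6 rose and 3 fell, where 17.9% of all genes were called, and the median was -0.03. The 6 include Nos2, which was at background in control jejunum. Between mutant jejunum and control ileum 1 rose and 1 fell, where 3.67% of all genes were called.

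**Figure D3:**
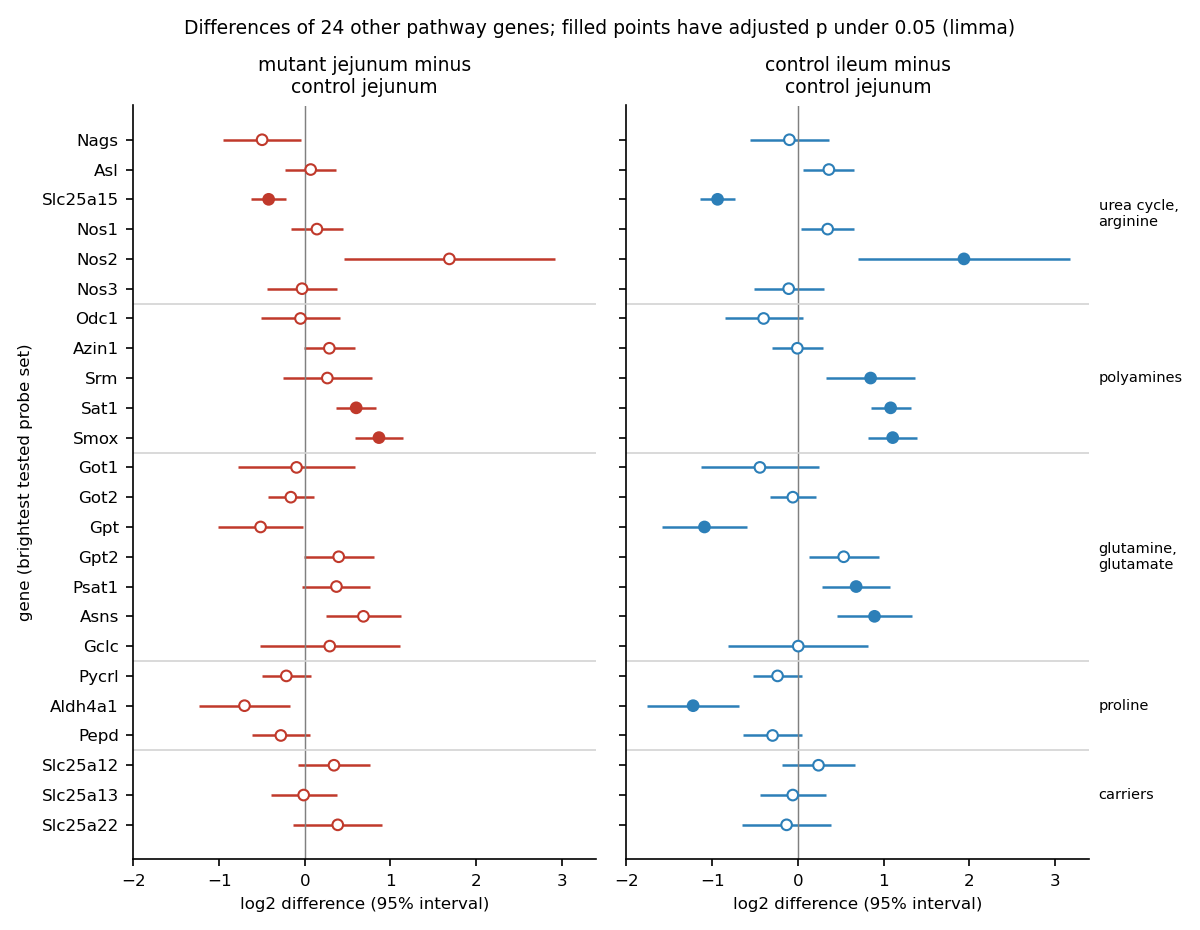
Log2 differences with 95% intervals of 24 other pathway genes in mutant jejunum minus control jejunum and control ileum minus control jejunum, grouped by role, with filled points at an adjusted p under 0.05 in limma. Slc25a15, Sat1 and Smox were filled in both panels, and the widest intervals were those of Nos2.

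Among 6 tested genes of the urea cycle and arginine use, the carrier gene fell in the mutant and the enzyme genes were not called. Slc25a15, which exchanges ornithine and citrulline across the inner mitochondrial membrane, stood at 11.43, 11.31 and 11.24 in mutant jejunum, at 10.78, 10.84 and 10.81 in control ileum and at 11.64, 11.82 and 11.78 in control jejunum. The 3 groups did not overlap. It fell by 0.42 ± 0.09 (SE) in mutant against control jejunum (1.34-fold lower, adjusted p = 0.0353) and by 0.94 ± 0.09 in control ileum against control jejunum (adjusted p = 9.26e-05), and it was 0.52 ± 0.09 higher in mutant jejunum than in control ileum (adjusted p = 0.0190). The mutant call held in 8 of 21 alternatives. It was lost with no scaling (adjusted p = 0.438), arrays centred on their medians (0.322), trimmed mean scaling (0.0662), no filter (0.0588), no intensity trend (0.112), the 2 groups alone (0.0692), the replicate block (0.0593) and the mean of both probe sets (0.270). It was also lost without mutant jejunum 2 or 3 (adjusted p = 0.119 and 0.0629), control ileum 2 (0.0594) or control jejunum 2 or 3 (0.148 and 0.139), with adjusted p from 0.0133 to 0.438. The dimmer probe set of Slc25a15 gave -0.05 in the mutant and was not called. Between mutant jejunum and control ileum, the call of the brighter probe set was lost without mutant jejunum 1 or 2 (adjusted p = 0.0779 and 0.0564). It was also lost without control ileum 1 or 2 (0.0530 and 0.0707), with no intensity trend (0.0665) and with the 2 groups alone (0.0583). The adjusted p ran from 0.00144 to 0.0779. Nags, whose product acetylglutamate activates the enzyme of Cps1, stood at 7.93 ± 0.49 in mutant jejunum and 8.43 ± 0.15 in control jejunum (adjusted p = 0.256). Asl, which completes arginine synthesis after Ass1, stood at 8.11 ± 0.11 and 8.04 ± 0.20 in the same groups (adjusted p = 0.857).

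Nos2, the inducible nitric oxide synthase gene, which turns arginine into citrulline and nitric oxide, varied most between mice. It stood at 4.78, 5.96 and 7.04 in mutant jejunum, at 4.99, 6.43 and 7.11 in control ileum and at 4.25, 4.15 and 4.32 in control jejunum. All control jejunum arrays were close to background, while the other groups each ranged from near background to clear signal. Every control jejunum array lay below the filter level of 4.95, so Nos2 was tested only through the groups where it is high, and the size of its difference depends on the pseudocount. Against control jejunum it was 1.69 ± 0.56 in mutant jejunum (adjusted p = 0.146) and 1.94 ± 0.56 in control ileum (adjusted p = 0.0384) at the pseudocount of 16, and the ileal one ran from 0.91 at a pseudocount of 64 to 3.80 at 1. No fold is read from these values. The ileal call was lost without control ileum 2 or 3 (adjusted p = 0.109 and 0.127), control jejunum 1, 2 or 3 (0.0829, 0.108 and 0.0918) or mutant jejunum 2 (0.0539), with a pseudocount of 64 (0.0703) and with no filter (0.0636), out of a range of 0.00871 to 0.127. In the mutant it was called in 2 of 21 alternatives, without mutant jejunum 1 (adjusted p = 0.0471) and with the replicate block (0.0454), out of a range of 0.0454 to 0.335 and with differences of 0.78 to 3.43. Within their groups, Nos2 was highest on mutant jejunum 3 and control ileum 3. These arrays also had the highest summed macrophage and myeloid level of their groups (5490 and 6107). Control ileum 1 and 2 had nearly equal sums (3824 and 3822) with Nos2 at 4.99 and 6.43. The sums were 2988 and 3515 on mutant jejunum 1 and 2, and 3997 to 4159 in control jejunum, where Nos2 was at background. The part of those cells was not tested. Without mutant jejunum 3, Nos2 gave 1.13 in mutant against control jejunum (adjusted p = 0.306).

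Of 5 tested genes of ornithine use and polyamine turnover, 2 were called in mutant against control jejunum, both higher, where 4.39% of all genes were called. Sat1, which acetylates spermidine and spermine, stood at 11.08, 10.96 and 10.84 in mutant jejunum, at 11.34, 11.40 and 11.58 in control ileum and at 10.37, 10.43 and 10.28 in control jejunum. It rose by 0.60 ± 0.11 (SE) in the mutant (1.52-fold, adjusted p = 0.0116) and by 1.08 ± 0.11 in control ileum against control jejunum (adjusted p = 8.12e-05). The groups did not overlap, and Sat1 was lower in mutant jejunum than in control ileum, by 0.48 ± 0.11 (it fell by 0.48, adjusted p = 0.0401), except with no scaling between arrays, where Sat1 was at 0.14 and the median of all probe sets at 0.41. The mutant call was lost without mutant jejunum 2 (adjusted p = 0.0531) or control jejunum 3 (0.0614) and with no scaling (0.0962), out of a range of 0.00208 to 0.0962. The difference from control ileum kept its call in 5 of 21 alternatives and lost it without any 1 of the 9 arrays, with adjusted p of 0.0207 to 0.569. Smox, which oxidizes spermine to spermidine, stood at 7.27, 7.22 and 7.10 in mutant jejunum, at 7.37, 7.42 and 7.52 in control ileum and at 6.29, 6.47 and 6.24 in control jejunum. It rose by 0.87 ± 0.13 in the mutant (1.82-fold, adjusted p = 0.00429) and by 1.11 ± 0.13 in control ileum (adjusted p = 0.000269), and both calls held in all 21 alternatives. Odc1, which makes putrescine from ornithine, stood at 10.85 ± 0.35 in mutant jejunum and 10.90 ± 0.36 in control jejunum on its brightest probe set (adjusted p = 0.943). On its dimmer probe sets Odc1 gave -0.34 (adjusted p = 0.469) and -0.48 (interval -0.85 to -0.11, adjusted p = 0.173) in the mutant, neither of them called. All 3 of its probe sets had lower means in control ileum than in control jejunum, at -0.40 (adjusted p = 0.218), -0.46 and -0.93, and Odc1 was called on the dimmest one alone (adjusted p = 0.00393).

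Of 7 tested genes of glutamate and transamination, 3 of proline use and 3 of mitochondrial glutamate and aspartate carriers, none was called in mutant against control jejunum in limma, and 3 of these 13 had an unadjusted p under 0.05. Aldh4a1, which oxidizes pyrroline carboxylate to glutamate and so follows Prodh in proline breakdown, stood at 7.74, 7.76 and 7.20 in mutant jejunum, at 7.64, 6.69 and 6.80 in control ileum and at 8.39, 8.15 and 8.26 in control jejunum. It fell by 1.22 ± 0.24 (SE) in control ileum against control jejunum (2.33-fold lower, adjusted p = 0.00649), in all 21 alternatives. In the mutant it gave -0.70 ± 0.24 (interval -1.24 to -0.17) with adjusted p = 0.163, although its groups did not overlap. Over all genes, the mutant and control jejunum arrays did not overlap for 25% of those tested. The 2 steps of proline breakdown were both called in control ileum, with opposite signs (Prodh at 1.66 and Aldh4a1 at -1.22). In the mutant they gave 1.13 and -0.70, where Aldh4a1 was not called. Gpt, the alanine aminotransferase gene, stood at 10.90, 10.59 and 10.12 in mutant jejunum, at 10.35, 10.04 and 9.49 in control ileum and at 10.99, 10.99 and 11.17 in control jejunum. Gpt fell by 1.09 ± 0.22 in control ileum (2.13-fold lower, adjusted p = 0.00787), in all 21 alternatives, and gave -0.52 ± 0.22 in the mutant (adjusted p = 0.276). Srm, Psat1 and Asns, named after their values were seen, rose in control ileum by 0.85, 0.68 and 0.89 (adjusted p = 0.0330, 0.0268 and 0.0120).

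**Figure D4:**
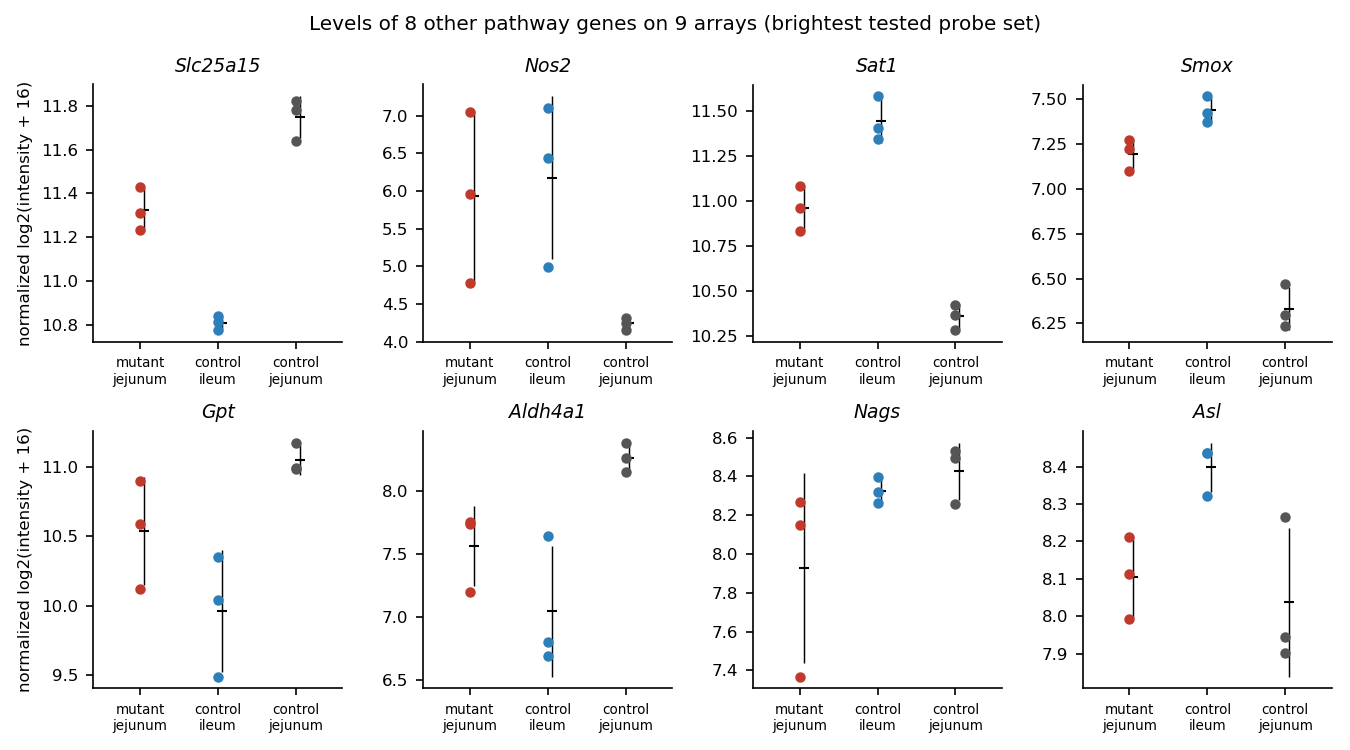
Normalized log2(intensity + 16) of 8 other pathway genes on the 9 arrays, as points, with black bars for the group mean ± SD (n = 3) and a vertical scale for each panel. Sat1 and Smox were higher on all 3 mutant jejunum arrays than on any control jejunum array, and Nos2 ran from 4.78 to 7.04 in mutant jejunum, against 4.15 to 4.32 in control jejunum.

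For each of these enzymes called in at least 1 comparison on its brightest probe set, the genes with the most similar pattern over the 9 arrays were found by the root mean square difference of mean-centred log2 levels among 13829 other genes. The nearest to Arg2 were Spns2, Sphk1 and Prrx1 (0.204, 0.206 and 0.209 on the log2 scale). Spns2 averaged 7.66 in mutant jejunum, 6.66 in control ileum and 9.17 in control jejunum. Sphk1 averaged 5.93, 5.06 and 7.63 in the same order. The nearest to Prodh were Ampd3, Rtn4 and Foxa1 (0.137, 0.203 and 0.208). Ampd3, an AMP deaminase gene, averaged 8.21 in mutant jejunum, 8.67 in control ileum and 7.01 in control jejunum. Aldh18a1 lay nearest to Tmed4, Fam234a and Primpol (0.107, 0.107 and 0.121). The nearest to Glud1 were Ranbp6, Ihh and Elmod2 (0.0612, 0.0946 and 0.0965), and the nearest to Otc were Mrpl4, Fam160a2 and Mcu (0.0527, 0.0550 and 0.0609), where small distances also follow from the small differences between groups.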

How the data were processed

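RNA was measured on 9 arrays, 1 per mouse, grouped by sample title. RNA was purified with RNeasy and labelled by the Affymetrix one-cycle method, per the labels' protocols. GCOS made the deposited intensity values, per the submitters' processing notes, which give neither version nor settings. The deposited table holds 1 linear intensity per probe set and array for 45101 probe sets, of which 64 array controls were dropped. The deposited values were then quantile-normalized as log2(intensity + 16). Probe sets above the 40th percentile (4.95) on 3 or more arrays were tested, 29307 in all. Platform annotation gave 1 gene for 34945 probe sets, several for 932 and none for 9160, and 34741 matched the RefSeq gene table of GRCm38.p6 with no symbol changed.

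Contrasts were fitted over all 9 arrays in limma 3.58.1 (R 4.3.3) with eBayes, an intensity trend and two-sided tests, after the script was tested on simulated data. A gene is represented by its brightest tested probe set. Named are all 9 enzymes, the other pathway genes called in the mutant, called at 2-fold or more in control ileum or paired with an enzyme in a reaction, and the 3 genes nearest to an enzyme by pattern. Markers of 11 classes were counted. Members and lists were chosen with earlier results of these data known. Alternatives changed the scaling, pseudocount (1 or 64), filter (none or the 60th percentile), trend, array weights, groups fitted, replicate block, use of all probe sets of a gene, and the arrays, each left out in turn. Shared replicate numbers were not treated as pairs, since control segments came from separate animals. Correlations between the deviations of same-numbered arrays were 0.165 or lower.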

Additional observations from a re-analysis of the deposited data

How the results depend on the processing

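The calls of Arg2 and Prodh in mutant and in ileum against control jejunum held in every alternative run. Leaving out 1 array in turn gave 2 to 3, 3 to 6 and 0 to 2 of the 8 enzymes called for mutant against control jejunum, control ileum against control jejunum and mutant jejunum against control ileum. For the other pathway genes it gave 1 to 4, 5 to 10 and 0 to 2, and over all probe sets 400 to 1007, 2862 to 5954 and 199 to 1049, against 1044, 4752 and 778 with all arrays. With no scaling, 659 (329 rose, 330 fell), 10632 (619 rose, 10013 fell) and 8497 (8349 rose, 148 fell) probe sets were called, against 511 and 533, 2449 and 2303, and 406 and 372 that rose and fell after quantile normalization. Then 1 pathway gene was called in mutant against control jejunum, and 6 enzymes and 9 pathway genes in mutant jejunum against control ileum, while the median of all probe sets moved by -0.40 in ileum against control jejunum and 0.41 in mutant jejunum against ileum. Centring on medians gave 1184 probe sets (936 rose, 248 fell), 1 enzyme and 1 pathway gene in the last comparison. Array weights gave 1998 probe sets and 4 enzymes in mutant against control jejunum, and 1680 and 2 in mutant jejunum against ileum. The filter at the 60th percentile gave 1197 probe sets over the whole array and 4 enzymes in mutant against control jejunum. In mutant jejunum against ileum, trimmed mean scaling, no filter and the replicate block each gave 1 pathway gene, with 781, 528 and 677 probe sets. With no intensity trend there were 525 probe sets and 0 pathway genes, and fits of the 2 groups alone gave 332 and 0. Apart from fewer probe sets tested under the stricter filter and fewer arrays, the cause was not tested.

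Differences whose sign turned were these. In mutant jejunum against ileum with no scaling, Cps1 was at 0.39, Prodh at 0.035, Sat1 at 0.14, Nags at 0.14, Asl at 0.24, Smox at 0.23 and Nos2 at 0.071. There Cps1 was at 0.075 after centring on medians, Oat at -0.016 after trimmed mean scaling, and Glul at -0.046 (-0.0069 on the dimmer probe set) with array weights. In mutant against control jejunum, Odc1 was at 0.021 with no scaling and 0.068 after centring, and Asl at -0.023 with array weights. Asl in ileum against control jejunum was at -0.14 with no scaling. Leaving out 1 array in turn, Odc1 ranged from -0.25 to 0.16 in mutant against control jejunum and Cps1 from -0.21 to 0.011 in ileum against control jejunum. In mutant jejunum against ileum, Oat ranged from -0.032 to 0.16, Glul from -0.12 to 0.51 and Nos2 from -0.85 to 0.32. Of these only Sat1 was called with all arrays.

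Replicate numbers were not treated as pairs. Same-numbered arrays had correlations of 0.165, -0.0572 and -0.0108 for mutant and control jejunum, where unlike numbers gave -0.189 to 0.194. For control ileum and control jejunum they were -0.0727, 0.0451 and -0.0353, where unlike numbers gave -0.0471 to 0.0751. For mutant jejunum and control ileum they were 0.122, 0.00749 and 0.0965, where unlike numbers gave -0.118 to 0.0267. The cause of this last difference was not tested. With the replicate block, 941, 4585 and 677 probe sets and 2, 5 and 0 enzymes were called in the 3 comparisons. The 3 arrays per group limit precision throughout, and probe sets near background, such as that of Ass1, allow no statement.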

Other observations

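A probe set annotated to both Ass1 and Gm5424 (1416239_at), which the selection by single gene leaves out, gave clear signal. It stood at 5.86, 6.30 and 6.10 in mutant jejunum, at 6.85, 6.98 and 6.91 in control ileum and at 5.92, 6.05 and 6.19 in control jejunum. The mutant and control jejunum arrays overlapped, and all ileal arrays lay above them. Control ileum was 0.86 ± 0.15 (SE) above control jejunum (limma, adjusted p = 0.00357), mutant jejunum differed from control jejunum by 0.03 (adjusted p = 0.953), and mutant jejunum was below control ileum (-0.83, adjusted p = 0.0205). Which of both genes gives this signal was not tested.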
